A study of Mus musculus with 4 samples.

Results

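The genes described here encode the enzymes that build cholesterol and fatty acids and the proteins that switch those enzymes on. The list holds 34 genes that answer to, or form, the sterol regulatory element-binding protein (SREBP) system. It was set with earlier results of these data known and matched to the deposited count table by gene symbol, with a minimum of 15 counts summed over the libraries. By that rule 33 of the 34 genes were members, out of 23420 rows in the table, and all 33 passed the filter on low counts, among 14649 genes tested. Msmo1 was not found under that symbol. The table holds Sc4mol, which RefSeq gives as a synonym of Msmo1, and its values are given apart and not counted.

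The RNA came from sorted mouse pancreatic β-cells that remained after β-cells were ablated by 10 days of doxycycline. Of 4 libraries, 2 were labelled Bmal1KO and 2 Bmal1+/- (Bmal1Het in the sample titles), and per the series' description all mice carried DTA, the diphtheria toxin A chain that kills the cells making it. Bmal1, whose gene symbol is Arntl, is a core transcription factor of the circadian clock. The labels name neither the promoter that drives the toxin nor the one that removes Bmal1, nor age or sex, and both groups had the ablation, so no undamaged islet stands beside them. The labels do not tie a library to an animal, so p-values reflect only how these 4 libraries vary. How much of that variation is technical and how much lies between animals is not known.

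Depth was 31056116 to 38020488 counts per library. Arntl RNA was at 75.8 and 65.6 CPM (reads scaled to a common library size) in the libraries labelled Bmal1KO, against 23.0 and 15 CPM in those labelled Bmal1Het, with a log2 fold change of 1.89 (edgeR adjusted p = 0.0175, or 0.0863 without Bmal1Het replicate 2). The count thus ran against the label, but a whole-gene count cannot show whether a deleted exon is missing. Libraries are named here by label only, as carrying the KO label or the Het label. The 8 β-cell markers summed to 216725.7 to 275642.1 CPM in each library. Their median log2 fold change was -0.37, and 1 of the 8, G6pc2, passed the test as lower with the KO label (log2 fold change -0.96, adjusted p = 0.0175). Markers of other islet endocrine cells had the largest sum of any list outside β-cells, at 4172.6 and 8745.2 CPM with the KO label, against 3624.4 and 3386 CPM with the Het label; their median log2 fold change was 0.98 and 1 of 6 tested, Irx2, passed as higher (2.64, adjusted p = 0.0230). Markers of other cells were present, and 0 of them were at 0 in all libraries. The 7 duct markers summed to 754 and 701 CPM with the KO label, against 914 and 1013.5 CPM with the Het label. Their median log2 fold change was -0.02, and 0 of 6 tested passed. The 10 acinar markers summed to 175 and 75.8 CPM with the KO label, against 54.1 and 10.8 CPM with the Het label, the 10 stromal markers to 154 and 411 CPM with the KO label, against 65.7 and 24.6 CPM with the Het label, and the 10 immune markers to 274 and 747 CPM with the KO label, against 214 and 236 CPM with the Het label. Of these, 4 of 8 tested stromal markers (Col1a2, Lum, Pdgfra and Sparc) and 1 of 9 tested immune markers (Cd14) passed the test as higher with the KO label, and 0 of 10 acinar markers passed. The median log2 fold change of the tested markers was 3.01 for stromal, 2.06 for acinar and 1.31 for immune cells. It was 1.6 for 4 endothelial, 1.01 for 5 Schwann and neuronal and 0.39 for 2 adipocyte markers, of which 0 passed. Sex-linked RNA also differed between the labels. Xist was at 8.67 and 38.8 CPM with the KO label, against 72.3 and 67.5 CPM with the Het label (edgeR adjusted p = 0.233). Ddx3y was at 89.1 and 23.8 CPM with the KO label, against 20.5 and 12.1 CPM with the Het label (adjusted p = 0.176). The groups did not overlap for either gene, and Bmal1KO replicate 1 lay furthest out. Eif2s3y and Uty, also on the Y chromosome, were highest in that library too, but their groups overlapped. Every library held RNA of Xist and of these Y-linked genes, and the replicates labelled Bmal1KO differed from each other in both. The part of these differences in the results below was not tested, and in bulk RNA fewer cells of a type and less RNA per cell cannot be told apart.

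SREBPs are made as membrane proteins of the endoplasmic reticulum. When sterols are low, SCAP escorts them to the Golgi, where proteases free the part that enters the nucleus and binds sterol regulatory elements and E-boxes in target genes. INSIG proteins hold SCAP back when sterols are plentiful. SREBP2 drives mainly cholesterol genes and SREBP1 mainly fatty acid genes. BMAL1 with CLOCK also binds E-boxes. In β-cells, cytosolic acetyl-CoA and malonyl-CoA made from glucose carbon are known as metabolic signals beside their role in lipid synthesis.

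The stretches printed next, from RefSeq (GRCm38.p6), lie before the annotated start of a member and are shown because they hold the DNA elements of the pathway. RefSeq's promoter table matched 26 of the 33 members by symbol, with 34 windows of 250 bases before a start. On both strands these were searched for the E-box CACGTG, for TCACNCCAC as a form of the sterol regulatory element, for the Y-box CCAAT and for the GC box GGGCGG; E-boxes and GC boxes can lie within longer elements, and overlaps between motifs were not removed. An E-box was found for 6 of the 26 members (23.1%), compared with 9.63% of 10761 tested genes with a window, and over windows for 6 of 34 (17.6%) against 6.02% of 32851. The sterol element was found for 1 member, Hmgcs1 (3.85%), and for 1.26% of tested genes, and over windows for 2.94% of the members' windows against 1.05% of all. The Y-box was found for 20 members (76.9%) and 40.0% of tested genes, and over windows for 61.8% of the members' windows against 33.8% of all. The GC box was found for 20 members (76.9%) and 61.9% of tested genes, and over windows for 67.6% against 32.7%. A match describes letters and is not evidence of binding.

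The 4 E-box stretches that lie outside annotated exons follow, each 40 bases, with the E-box in capitals.
Insig1 (chr5:28071294-28071333, plus strand): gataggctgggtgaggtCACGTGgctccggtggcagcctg
Hsd17b7 (chr1:169969326-169969365, minus strand): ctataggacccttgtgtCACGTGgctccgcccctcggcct
Sc5d (chr9:42264376-42264415, minus strand): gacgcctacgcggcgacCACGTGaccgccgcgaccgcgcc
Elovl5 (chr9:77917187-77917226, plus strand): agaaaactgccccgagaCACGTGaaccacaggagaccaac

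The next pair belongs to the members with the smallest p among the cholesterol genes and among the fatty acid genes. The Hmgcs1 stretch has the sterol element in capitals, beginning 137 bases before the start, and the Acly stretch, which ends at the start, has its 4 GC boxes in capitals. No E-box or sterol element as spelled above was found in the 250-base window of Acly.
Hmgcs1 (chr13:119690191-119690310, plus strand): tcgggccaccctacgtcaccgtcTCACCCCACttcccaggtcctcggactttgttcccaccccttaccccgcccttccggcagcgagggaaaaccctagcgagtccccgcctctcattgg
Acly (chr11:100528001-100528120, minus strand): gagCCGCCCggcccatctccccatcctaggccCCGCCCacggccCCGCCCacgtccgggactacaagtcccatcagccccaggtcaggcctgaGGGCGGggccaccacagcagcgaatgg

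Acly, which makes cytosolic acetyl-CoA from citrate, was the 1 member that passed the test, and it was higher in the libraries labelled Bmal1KO. Of the 33 members 1 rose, 0 fell and 32 did not pass at an edgeR adjusted p of 0.05, while 2.54% of all 14649 tested genes passed (1.2% higher, 1.34% lower). At an unadjusted p of 0.05, 5 members passed, 4 higher and 1 lower, beside 16.9% of all tested genes (9.12% higher, 7.75% lower). The groups did not overlap for 16 of the 33 members, 12 higher and 4 lower, beside 49% of all tested genes (25.3% higher, 23.8% lower). The shares over both directions lay near the background, so these totals give no result about the list as a whole. By direction, 36.4% of the members did not overlap as higher and 12.1% as lower. The median log2 fold change over the members was 0.21, beside 0.024 over all tested genes. The level was higher for 26 members and lower for 7, and 52.4% of all tested genes had a higher one. This lean depended on 1 library. Without Bmal1KO replicate 1 the members' median was -0.06, with 16 higher and 17 lower. It was 0.29 without Bmal1KO replicate 2, 0.22 without Bmal1Het replicate 1 and 0.27 without Bmal1Het replicate 2.

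**Figure D1:**
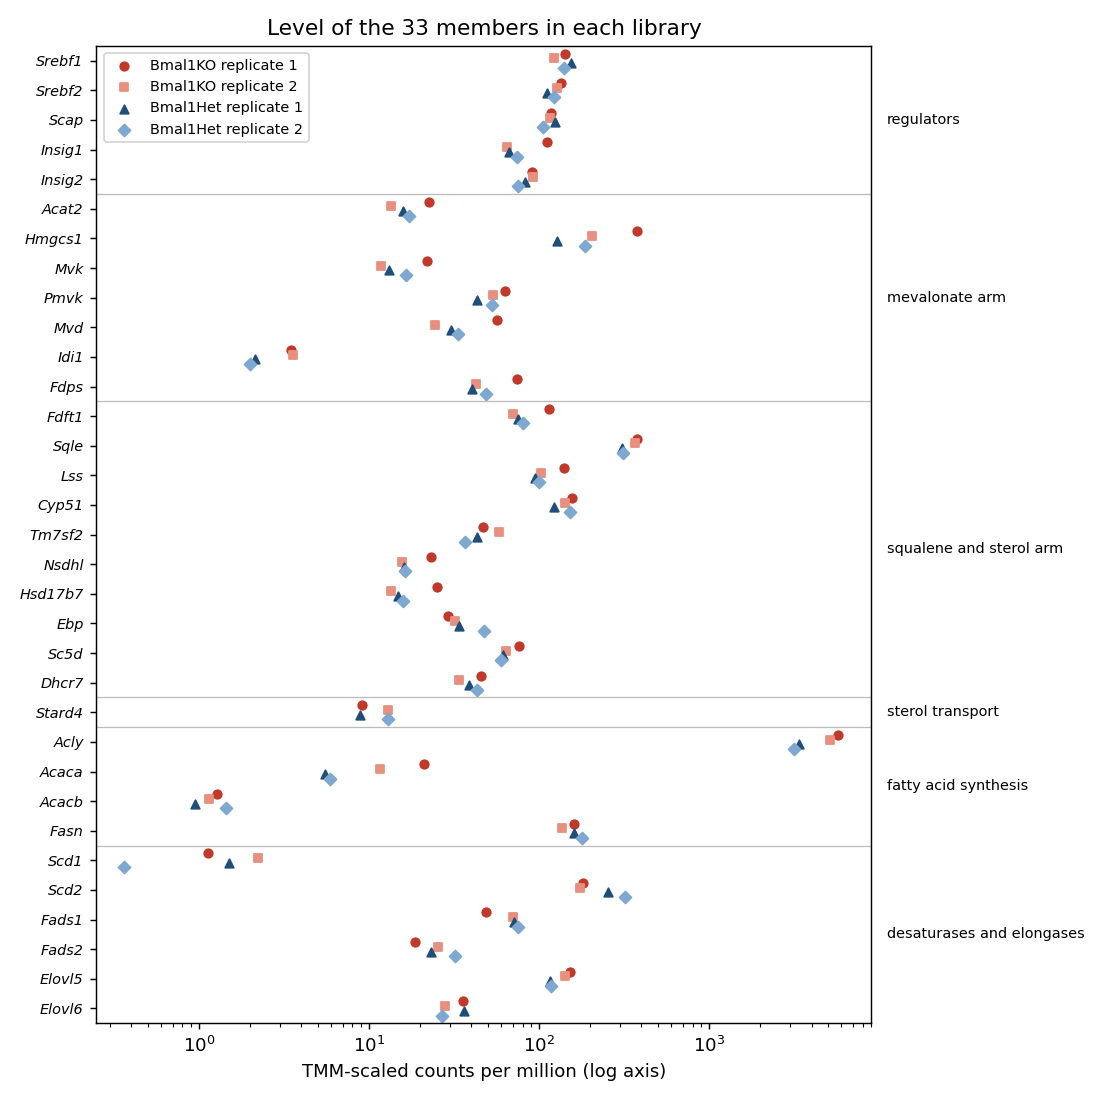
Level of each of the 33 members in TMM-scaled CPM on a log axis, with 1 point per library (red for Bmal1KO, blue for Bmal1Het) and genes grouped by role. Acly lies far to the right, between 3153.5 and 5743.7 CPM, and for many genes of the mevalonate and sterol arms the Bmal1KO replicate 1 point stands to the right of the other 3.

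The members spanned a wide range of abundance. Per kilobase of exon, and averaged over the 4 libraries, Acly was at 824 CPM per kb and ranked 14 among the 13736 tested genes with an annotated exon length. Sqle followed at 61.7, Hmgcs1 at 48.8, Scd2 at 42.4 and Elovl5 at 37.5 CPM per kb. The stearoyl-CoA desaturase RNA of these cells was nearly all Scd2, since Scd1 was at 0.266 CPM per kb. Of the acetyl-CoA carboxylases, Acaca was at 0.645 and Acacb at 0.126 CPM per kb, both far below Fasn at 14.5 CPM per kb. Idi1 was the lowest of the cholesterol enzymes at 0.801 CPM per kb. The sources used here do not say how reads with several matches were counted, so the low levels of single members are uncertain to that extent.

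The regulators did not pass: 0 of 5 by edgeR, also at an unadjusted p of 0.05, and 0 by DESeq2, limma-voom and limma-trend. Srebf2 (chromosome 15, 82147181 to 82205379, plus strand), which encodes the SREBP that drives cholesterol genes, had 134 and 127 CPM in the libraries labelled Bmal1KO, against 112 and 122 CPM in those labelled Bmal1Het (log2 fold change 0.16, 95% interval -0.17 to 0.49). Srebf1, for the SREBP that drives fatty acid genes, was at 142 and 123 CPM with the KO label, against 155 and 141 CPM with the Het label (-0.16, -0.51 to 0.19). The groups overlapped for Srebf1, and the intervals hold both directions for either gene. Scap, the escort, was at 117 and 116 CPM with the KO label, against 124 and 106 CPM with the Het label, a log2 fold change of 0.03.

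The INSIG genes, whose products retain SCAP, differed from each other in how they varied. Insig1 (chromosome 5, 28071363 to 28078662, plus strand), itself a sensitive SREBP target, had 111 and 65.0 CPM in the libraries labelled Bmal1KO, against 66.9 and 73.9 CPM in those labelled Bmal1Het (log2 fold change 0.32, SE 0.25, adjusted p = 0.590). Its high value came from Bmal1KO replicate 1, and the other 3 libraries lay close together. Insig2, which is less dependent on SREBP, was at 90.7 and 92.3 CPM with the KO label, against 82.3 and 75.5 CPM with the Het label (log2 fold change 0.21, adjusted p = 0.520). For Insig2 both libraries labelled Bmal1KO lay above both labelled Bmal1Het.

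In the mevalonate arm, which turns acetyl-CoA into isoprenoid units, all 7 genes had a higher level in the libraries labelled Bmal1KO and 0 passed the adjusted threshold by edgeR, limma-voom or limma-trend. Hmgcs1 passed at an unadjusted p of 0.05 and by DESeq2. The arm's median log2 fold change was 0.36. Hmgcs1 (chromosome 13, 119690379 to 119708260, plus strand), the HMG-CoA synthase of the cytosol, had 378 and 205 CPM in the libraries labelled Bmal1KO, against 127 and 187 CPM in those labelled Bmal1Het. Its log2 fold change was 0.90 (SE 0.31, 95% interval 0.17 to 1.62, edgeR adjusted p = 0.204). The groups did not overlap, but Bmal1KO replicate 2 lay nearer to Bmal1Het replicate 2 than to its own replicate. Without Bmal1KO replicate 1 the log2 fold change was 0.36 (adjusted p = 0.495), without Bmal1KO replicate 2 it was 1.27 (adjusted p = 0.0369), and by DESeq2 it was 0.89 (adjusted p = 0.0340).

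Most other enzymes of this arm were also highest in Bmal1KO replicate 1. Mvd, the diphosphomevalonate decarboxylase, had 56.8 and 24.6 CPM in the libraries labelled Bmal1KO, against 30.3 and 33.3 CPM in those labelled Bmal1Het, so it was highest and lowest within 1 label. Mvk, the mevalonate kinase, was at 21.9 and 11.7 CPM with the KO label, against 13.2 and 16.5 CPM with the Het label. Fdps, which makes farnesyl diphosphate, was at 74.2 and 42.4 CPM with the KO label, against 40.1 and 48.5 CPM with the Het label. In each of these the highest library was Bmal1KO replicate 1, and Bmal1KO replicate 2 lay within or below the range of the libraries labelled Bmal1Het. Acat2, the thiolase at the head of the pathway, was at 22.4 and 13.4 CPM with the KO label, against 15.9 and 17.2 CPM with the Het label, and Bmal1KO replicate 2 was the lowest.

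Pmvk and Idi1 were the members of this arm with the smallest gaps between the replicates labelled Bmal1KO. Pmvk, the phosphomevalonate kinase, had 63.2 and 53.5 CPM in the libraries labelled Bmal1KO, against 43.2 and 52.6 CPM in those labelled Bmal1Het (log2 fold change 0.29, adjusted p = 0.491). Idi1, the isopentenyl diphosphate isomerase, was at 3.50 and 3.59 CPM with the KO label, against 2.14 and 2 CPM with the Het label, from 115 and 115 counts with the KO label, against 83 and 66 counts with the Het label (log2 fold change 0.77, SE 0.49, adjusted p = 0.493). Neither gene overlapped between groups and neither passed, and for Pmvk the nearest libraries of the groups were at 53.5 and 52.6 CPM.

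The squalene and sterol arm carries farnesyl diphosphate to cholesterol. Of its 10 measured members 8 had a higher and 2 a lower level in the libraries labelled Bmal1KO, with a median log2 fold change of 0.26. Of these 10, 0 passed by edgeR, also at an unadjusted p of 0.05, and 0 by DESeq2, limma-voom and limma-trend. Sqle (chromosome 15, 59315077 to 59331192, plus strand), the squalene epoxidase and a rate-limiting step, had 379 and 369 CPM in the libraries labelled Bmal1KO, against 307 and 312 CPM in those labelled Bmal1Het. Replicates of Sqle lay close together and the groups did not overlap. The log2 fold change was 0.27 (SE 0.13, 95% interval -0.03 to 0.58, adjusted p = 0.350), a fold of 1.21 (interval 0.978 to 1.49).

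Fdft1, the squalene synthase, had 115 and 70.3 CPM in the libraries labelled Bmal1KO, against 75.2 and 80.8 CPM in those labelled Bmal1Het. Lss, which closes the first sterol ring system, was at 141 and 102 CPM with the KO label, against 95.2 and 99.3 CPM with the Het label. Hsd17b7, a sterol ketone reductase, was at 25.1 and 13.5 CPM with the KO label, against 14.8 and 15.9 CPM with the Het label. Nsdhl, which acts with it in removing methyl groups, was at 23.3 and 15.7 CPM with the KO label, against 16.1 and 16.2 CPM with the Het label. In these 4 genes Bmal1KO replicate 1 was the highest library and the other 3 lay within a narrow band. Cyp51, which demethylates lanosterol, Sc5d, a sterol desaturase, and Dhcr7, which makes cholesterol in the last step of 1 branch, were also highest in Bmal1KO replicate 1, with log2 fold changes of 0.12, 0.21 and -0.04.

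Tm7sf2 and Ebp departed from that order. Tm7sf2, a sterol reductase, had 46.7 and 57.9 CPM in the libraries labelled Bmal1KO, against 43.3 and 36.9 CPM in those labelled Bmal1Het (log2 fold change 0.38, SE 0.19, adjusted p = 0.366). Ebp, a sterol isomerase, was at 29.2 and 31.9 CPM with the KO label, against 33.7 and 47.7 CPM with the Het label (-0.42, SE 0.22, adjusted p = 0.398), with Bmal1Het replicate 2 apart from the rest. The gene listed as Sc4mol, a sterol methyl oxidase, was at 182 and 150 CPM with the KO label, against 112 and 128 CPM with the Het label (log2 fold change 0.47, SE 0.16, adjusted p = 0.209). Stard4, which carries cholesterol between membranes, was at 9.10 and 13.0 CPM with the KO label, against 8.88 and 12.9 CPM with the Het label with a log2 fold change of 0.02 and an interval of -0.76 to 0.80.

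**Figure D2:**
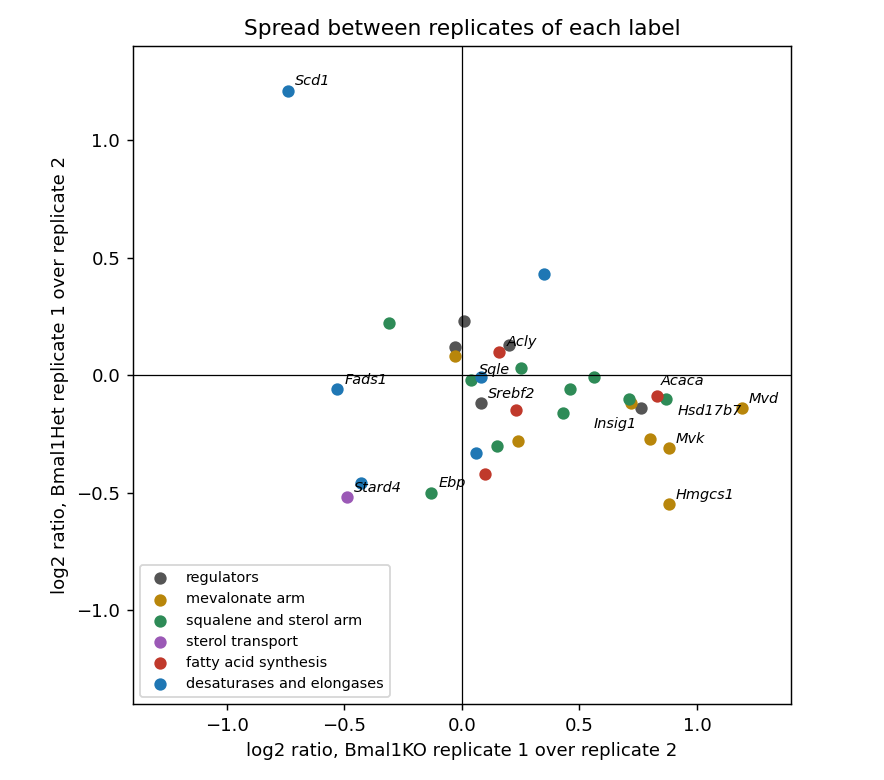
For each of the 33 members, the log2 ratio of replicate 1 over replicate 2 among the libraries labelled Bmal1KO (x axis) and among those labelled Bmal1Het (y axis), coloured by role; 0.5 CPM was added before the ratio. Genes of the mevalonate arm spread to the right, as far as 1.19 for Mvd, while on the y axis they stay between -0.55 and 0.08.

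Across both cholesterol arms the replicates labelled Bmal1KO stood apart from each other. Of 17 genes, 14 were higher in Bmal1KO replicate 1 than in replicate 2 (50% of all tested genes), and 14 had their highest level of all 4 libraries in Bmal1KO replicate 1 (29.9% of all tested genes). The median log2 ratio of replicate 1 over replicate 2 was 0.46 for the libraries labelled Bmal1KO and -0.12 for those labelled Bmal1Het. It was 0.80 in the mevalonate arm and 0.34 in the sterol arm, and 0 over all tested genes. Summed over the 17 genes, the libraries labelled Bmal1KO held 1659.1 and 1254.4 CPM and those labelled Bmal1Het 1080.4 and 1221.4 CPM.

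Leaving out Bmal1KO replicate 1 removed the shift of the cholesterol genes. The median log2 fold change of the 17 genes was 0.27 with all libraries, -0.06 without Bmal1KO replicate 1 (8 genes higher, 9 lower) and 0.53 without Bmal1KO replicate 2 (16 higher, 1 lower). It was 0.26 without Bmal1Het replicate 1 and 0.30 without Bmal1Het replicate 2. Bmal1KO replicate 1 was also the library with the highest summed acinar (175 CPM) and endothelial (40.2 CPM) markers and the lowest Xist, while stromal and immune markers peaked in Bmal1KO replicate 2; their part in this pattern was not tested. Summed adipocyte markers, of which 4 of 6 were at 0 in that library, were at 0.122 CPM there and at 0.212 to 8.93 CPM in the other libraries.

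The genes that build fatty acids from acetyl-CoA split. Acly (chromosome 11, 100476353 to 100528000, minus strand) had 5743.7 and 5130.1 CPM in the libraries labelled Bmal1KO, against 3372.6 and 3153.5 CPM in those labelled Bmal1Het. Both replicate pairs lay close together and the groups did not overlap. It averaged 5436.9 ± 434 CPM in the libraries labelled Bmal1KO and 3263 ± 155 CPM in those labelled Bmal1Het (SD, n = 2 each), a log2 fold change of 0.74 (SE 0.13, 95% interval 0.43 to 1.04, edgeR adjusted p = 0.0371), or 1.67-fold.

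The Acly call rested on both libraries labelled Bmal1Het, though fits without either of them also gave fewer calls over all genes. Without Bmal1Het replicate 1 its log2 fold change was 0.79 (adjusted p = 0.169), and without Bmal1Het replicate 2 it was 0.68 (adjusted p = 0.304). It passed without Bmal1KO replicate 1 (0.63, adjusted p = 0.0367) and without Bmal1KO replicate 2 (0.82, adjusted p = 0.0159). By DESeq2 it passed (0.73, adjusted p = 9.56e-06), and by limma-trend on the deposited scaled values it did not (0.73, adjusted p = 0.111). Acly took most of the members' reads, with 587942 counts over the 4 libraries.

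Acaca (chromosome 11, 84129672 to 84401651, plus strand), the acetyl-CoA carboxylase that supplies malonyl-CoA for synthesis, had 21.0 and 11.6 CPM in the libraries labelled Bmal1KO, against 5.50 and 5.90 CPM in those labelled Bmal1Het. Both libraries labelled Bmal1KO lay above both labelled Bmal1Het, and within the KO label replicate 1 stood above replicate 2 by 0.83 on the log2 scale. The log2 fold change of 1.52 was the largest of any member (SE 0.36, 95% interval 0.67 to 2.36) and did not pass (edgeR adjusted p = 0.0869). Without Bmal1KO replicate 1 it was 1.01 (adjusted p = 0.183), without Bmal1KO replicate 2 it was 1.88 (adjusted p = 0.0182), and by DESeq2 it was 1.51 (adjusted p = 0.00467).

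Fasn, the fatty acid synthase that uses malonyl-CoA, had 160 and 136 CPM in the libraries labelled Bmal1KO, against 161 and 178 CPM in those labelled Bmal1Het (log2 fold change -0.19, SE 0.15, 95% interval -0.55 to 0.16, adjusted p = 0.588). Acacb, the carboxylase tied to control of fatty acid oxidation, was at 1.28 and 1.15 CPM with the KO label, against 0.955 and 1.45 CPM with the Het label, with an interval of -1.73 to 1.77 that leaves its direction undetermined at this depth.

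The 6 desaturases and elongases add double bonds to fatty acid chains or lengthen them. With the KO label 3 of them were at a higher and 3 at a lower mean level. By edgeR 0 passed, with 2 at an unadjusted p of 0.05 (Scd2 and Elovl5), 1 by DESeq2 (Scd2) and 0 by limma-voom and limma-trend. Scd2 (chromosome 19, 44293674 to 44306864, plus strand), which puts the first double bond into saturated chains, had 181 and 174 CPM in the libraries labelled Bmal1KO, against 254 and 319 CPM in those labelled Bmal1Het. The libraries labelled Bmal1KO lay close together and below both of the others. The log2 fold change was -0.69 (SE 0.16, 95% interval -1.07 to -0.32, edgeR adjusted p = 0.0795), a fold of 0.618, and it did not pass. By DESeq2 it was -0.70 (adjusted p = 0.00167). Scd1 had 37 and 71 counts with the KO label, against 58 and 12 counts with the Het label, and its direction could not be read.

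Fads1 and Fads2, the desaturases of polyunsaturated chains, had lower mean levels in the libraries labelled Bmal1KO. Fads1 was at 48.6 and 70.4 CPM with the KO label, against 71.4 and 74.7 CPM with the Het label, and Fads2 at 18.7 and 25.3 CPM with the KO label, against 23.2 and 32.1 CPM with the Het label, with log2 fold changes of -0.30 (adjusted p = 0.531) and -0.33 (adjusted p = 0.583). For these 2 genes Bmal1KO replicate 1 was the lowest library, in contrast to most cholesterol genes. Elovl5, the elongase of the same chains, was at 152 and 143 CPM with the KO label, against 116 and 117 CPM with the Het label. The groups did not overlap for Elovl5. Its log2 fold change of 0.34 had an SE of 0.14 (edgeR adjusted p = 0.264). Elovl6, which lengthens saturated chains, was at 35.6 and 27.9 CPM with the KO label, against 36.2 and 26.7 CPM with the Het label, a log2 fold change of 0.01.

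**Figure D3:**
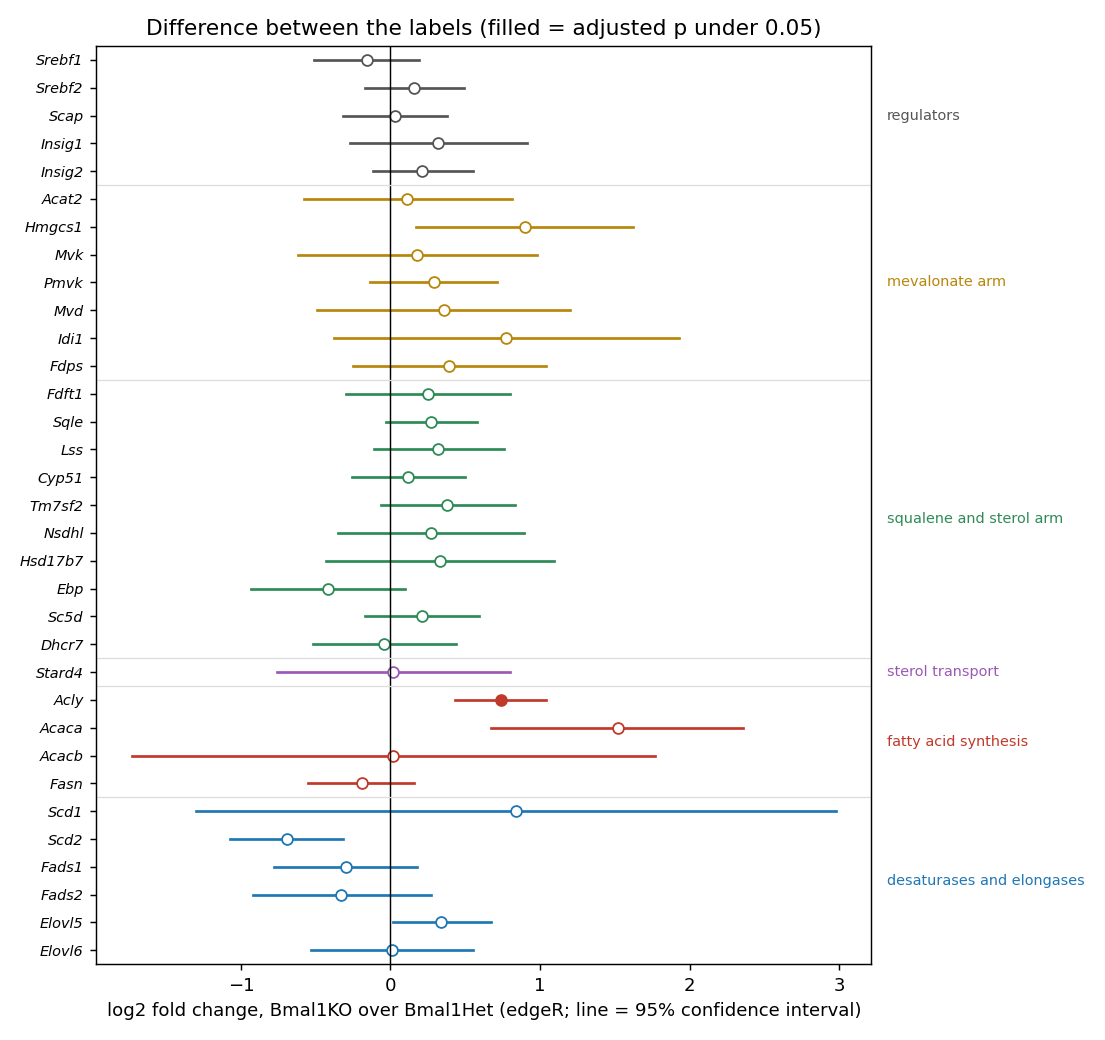
Log2 fold change of each member, libraries labelled Bmal1KO over those labelled Bmal1Het, with its 95% confidence interval from edgeR; the filled point passed an adjusted p of 0.05. Acly (0.74) is the filled one, and of the open points Acaca, Hmgcs1, Elovl5 and Scd2 have intervals that do not reach 0.

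Genes around the pathway, from lists that share no member with the 34, gave 3 calls among 76 tested genes, all higher in the libraries labelled Bmal1KO. That is 3.95%, beside 2.54% of all tested genes (1.2% higher), and 15.8% had an unadjusted p under 0.05, 6 higher and 6 lower, beside 16.9% of all tested genes. The lists were also chosen with earlier results known, and 3 calls give no result about them as a whole. Of 15 tested genes of lipogenic supply and of other elongases and desaturases, 2 rose and 13 did not pass, with a median log2 fold change of -0.03. Aacs, which makes acetoacetyl-CoA in the cytosol for lipid synthesis, had 640 and 509 CPM in the libraries labelled Bmal1KO, against 284 and 261 CPM in those labelled Bmal1Het (log2 fold change 1.07, SE 0.16, edgeR adjusted p = 0.0230). Mid1ip1, whose protein promotes the active polymer of acetyl-CoA carboxylase, was at 310 and 224 CPM with the KO label, against 134 and 134 CPM with the Het label (1, SE 0.18, adjusted p = 0.0419). Neither gene overlapped between groups. Without Bmal1Het replicate 1 or 2 the adjusted p was 0.0915 and 0.170 for Aacs and 0.170 and 0.228 for Mid1ip1, and without Bmal1KO replicate 1 it was 0.0577 for Mid1ip1.

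Of 8 genes of the liver X receptor system and sterol efflux, 1 rose and 7 did not pass, with a median log2 fold change of 0.21. Abca1, which exports cholesterol from cells, had 143 and 96.5 CPM in the libraries labelled Bmal1KO, against 49.4 and 48.0 CPM in those labelled Bmal1Het (log2 fold change 1.30, SE 0.21, edgeR adjusted p = 0.0277). Its groups did not overlap. Without Bmal1Het replicate 1 or 2 the adjusted p was 0.103 and 0.160. Macrophages and stromal cells also express Abca1. The stromal, acinar and immune marker sums given above were higher in both libraries labelled Bmal1KO than in those labelled Bmal1Het. The stromal and immune sums were highest in Bmal1KO replicate 2, whereas Abca1 and the acinar sum were highest in Bmal1KO replicate 1. The part of these cells was not tested.

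**Figure D4:**
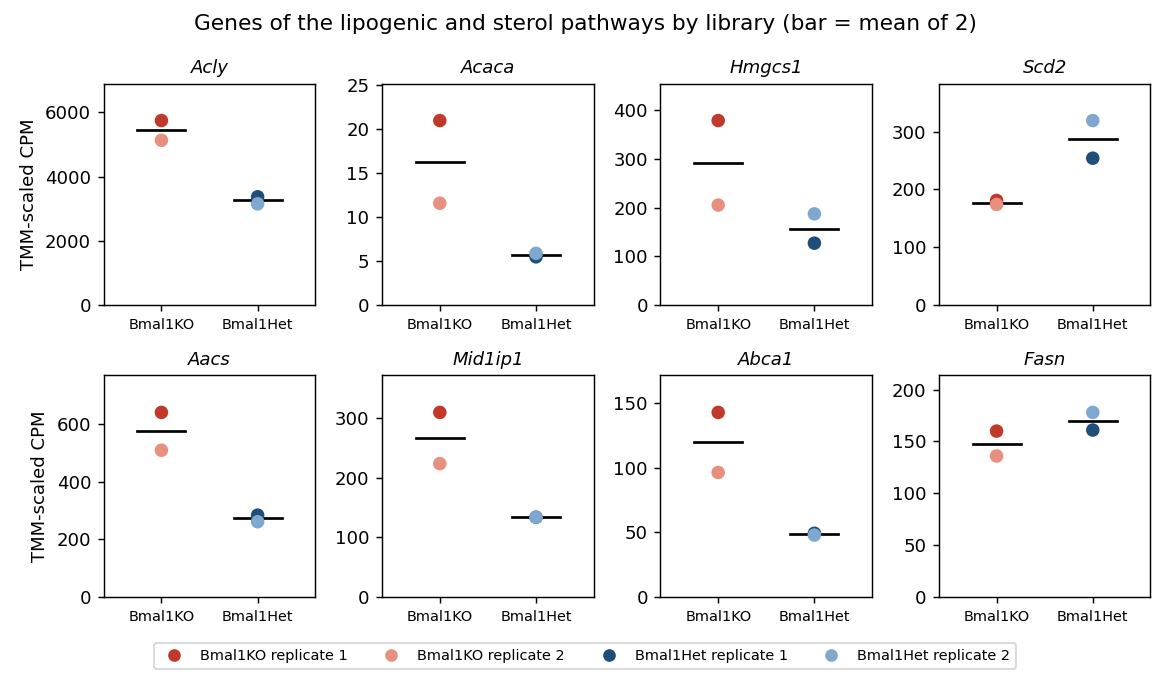
TMM-scaled CPM of 8 genes in each library (points; bars are means of 2), libraries labelled Bmal1KO to the left of those labelled Bmal1Het, each axis starting at 0. Acly, Aacs, Mid1ip1 and Abca1 passed the test and were higher in the libraries labelled Bmal1KO; Acaca, Hmgcs1, Scd2 and Fasn did not pass.

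None of the other 4 lists held a call by edgeR. Of 14 tested genes of acyl-CoA activation and glycerolipid synthesis 0 passed, with a median of -0.01; 4 had an unadjusted p under 0.05, 2 higher and 2 lower, 2 passed by DESeq2, and 1 each by limma-voom and limma-trend. Acsl1, an acyl-CoA synthetase, had 34.2 and 33.3 CPM in the libraries labelled Bmal1KO, against 18.0 and 13.0 CPM in those labelled Bmal1Het (log2 fold change 1.12, edgeR adjusted p = 0.0560). Lpin1, a phosphatidate phosphatase, was at 245 and 181 CPM with the KO label, against 133 and 102 CPM with the Het label (0.86, adjusted p = 0.0879). Both were near the threshold and neither overlapped between groups. By DESeq2 the adjusted p was 0.00122 for Acsl1 and 0.00258 for Lpin1. The 2 lower genes were Acsl4, another acyl-CoA synthetase (-0.70, edgeR adjusted p = 0.177), and Pcyt1a, of phosphatidylcholine synthesis (-0.49, adjusted p = 0.238).

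Of 10 genes of SREBP processing and turnover 0 passed, with a median log2 fold change of -0.14; 2 had an unadjusted p under 0.05, and 0 passed by DESeq2, limma-voom or limma-trend. Mbtps1, the first of the proteases that release SREBP, had 153 and 162 CPM in the libraries labelled Bmal1KO, against 200 and 197 CPM in those labelled Bmal1Het (log2 fold change -0.33, adjusted p = 0.273). Paqr3, a Golgi anchor of SCAP, was at 3.10 and 2.43 CPM with the KO label, against 5.34 and 5.99 CPM with the Het label (-1.03, adjusted p = 0.275). The replicates of Mbtps1 lay close together.

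Of 14 genes of the isoprenoid branch 0 passed, with a median of -0.07; 1 had an unadjusted p under 0.05, 1 passed by DESeq2 and 0 by limma-voom and limma-trend. Dhdds, of dolichol synthesis, had 115 and 126 CPM in the libraries labelled Bmal1KO, against 161 and 182 CPM in those labelled Bmal1Het (log2 fold change -0.51, adjusted p = 0.139; 0.0250 by DESeq2), and Ggps1, of geranylgeranyl synthesis, had a log2 fold change of 0.39. Of 15 genes of sterol storage, uptake and transport 0 passed, also at an unadjusted p of 0.05 and by the other tools, with a median of 0.09, and Osbpl2 (-0.31) and Stard5 (0.44) had the smallest p-values.

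Some members share exons with a neighbouring protein-coding gene in GENCODE M21 (GRCm38), and counting without strand cannot separate them. These were Fdps with Gm43738 (1124 bases), Fdft1 with Ctsb (774 bases), Tm7sf2 with Vps51 (532 bases), Cyp51 with Akap9 (166 bases) and Srebf1 with Rai1 (109 bases). Their values are uncertain to that extent. No such overlap was annotated for Acly, Acaca, Hmgcs1, Sqle or Scd2.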

How the data were processed

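Per the labels' protocols, the RNeasy Plus Micro kit gave total RNA, and the SMART-Seq v4 Ultra Low Input kit, an unstranded method, gave the libraries. STAR, edgeR and mm10 appear in the submitters' processing notes without version or role; the counter and the annotation were not found in the labels. The authors deposited raw read counts per gene symbol, on which every main test was run. A second deposited table holds a scaled signal, which is each count multiplied by a constant of its library; at a tolerance of 0.01, 100% of its values gave whole reads.

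Genes were kept by filterByExpr (minimum count 10 and total 15). After TMM scaling, edgeR 4.0.16 under R 4.3.3 fitted a quasi-likelihood model with 1 term, the group. Tests were 2-sided, and Benjamini-Hochberg adjustment ran over all 14649 genes with a threshold of 0.05. CPM values are TMM-scaled. Standard errors and 95% intervals come from the quasi-likelihood statistic. Replicates differed by more than sampling noise (chi-square per degree of freedom 66.8 for Bmal1KO and 44.0 for Bmal1Het), so none was taken for a copy. Libraries held 31056116 to 38020488 counts, and without molecular identifiers counting error is a lower limit. Exon lengths and positions are from GENCODE M21 (GRCm38), found for 93.8% of tested genes.

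The members, lists and naming rule were chosen with earlier results of these data known. All members are named, as are the genes of each further list past the threshold, or else the 2 with the smallest p. Alternatives were other scalings, filters, DESeq2 1.42.0, limma 3.58.1 (voom, and trend with a pseudocount of 1), a replicate block, a threshold of 0.1 and leaving out each library on the same genes. The test on recovered reads was added after seeing the data.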

Additional observations from a re-analysis of the deposited data

How the results depend on the processing

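Acly passed under other scalings and filters, by DESeq2 and limma-voom, with the replicate block and on recovered reads. It also passed without either library labelled Bmal1KO. It did not pass without either library labelled Bmal1Het or by limma-trend. The number of members higher was 1 in the test as reported, 2 with no filter on low counts, 2 at a threshold of 0.1, 3 by DESeq2 and 0 by limma-trend, and 0 to 3 when 1 library was left out. The number lower was 0, then 1 with no filter, 1 at a threshold of 0.1 and 1 by DESeq2, and 0 in each fit that left out a library. Over all genes, 176 were higher and 196 lower as reported. With no filter these were 430 and 378, at a threshold of 0.1 they were 378 and 350, by DESeq2 619 and 560, and 14 to 359 higher and 5 to 375 lower when 1 library was left out; 266 were higher at a mean of 5 CPM or more. Calls in the further lists numbered 3, then 6 with no filter, 6 at a mean of 5 CPM or more, 6 with the replicate block, 6 at a threshold of 0.1, 7 by DESeq2, and 0 to 7 when 1 library was left out. The recovered reads gave 176 and 196.

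Over all genes, same-numbered libraries did not deviate together (correlation over genes -0.0167). That value cannot exclude a pairing that touches only part of the genes, so whether the numbers pair the libraries is not known. With the replicate block 313 genes were higher and 278 lower, against 176 and 196 without it, and 1 member was higher and 0 lower.

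The 33 members had 525 values under alternatives, of which 20 had the opposite sign, all of them for members that did not pass. Dhcr7 was at 0.0064 with library sizes only and 0.012 without the top 20 genes, against -0.04 as reported. The rest of these came from leaving out a library. Their log2 fold changes ran from -0.14 to 0.65 for Insig1, -0.32 to 0.44 for Acat2, -0.37 to 0.56 for Mvk, -0.39 to 0.84 for Mvd, -0.085 to 0.74 for Fdps, -0.17 to 0.56 for Fdft1, -0.065 to 0.53 for Nsdhl and -0.20 to 0.71 for Hsd17b7, each lowest without Bmal1KO replicate 1. They ran from -0.091 to 0.15 for Scap, -0.026 to 0.27 for Cyp51, -0.29 to 0.16 for Dhcr7, -0.26 to 0.30 for Stard4, -0.25 to 0.34 for Acacb and -0.20 to 0.25 for Elovl6. The cause was not tested. A fit without 1 library has 1 residual degree of freedom, and its lone library is assumed to vary like the other group. Counts of 164 for Acacb and 178 for Scd1 limit what can be read from those members.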
